A study of Mus musculus with 30 samples.

Results

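The solvent-treated baseline of a primary mouse tail fibroblast line is described here from its 6 DMSO libraries, out of 30 libraries in the series. The libraries were chosen by their titles, DMSO rep1 to DMSO rep6, and genes were kept where they reached 1 TPM (transcripts per 1000000 transcripts, a length-corrected abundance relative to all transcripts of the same library) in at least 3 of the 6. That rule kept 12690 of the 29861 genes in the table (42.5%), and 12011 of them reached 1 TPM in all 6 libraries. A further 9232 genes were listed at 0 in every DMSO library.

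The study exposed the line to DMSO or to 1 of 8 compounds, and its title concerns NRF2-dependent and -independent routes to stress resistance. The line, CCG-HTA-1, came from tails of UMHet3 mice, a genetically mixed stock, that were 5 to 8 weeks old when the cells were taken. Dihydrorotenone replicate 1 alone is labelled with an older age range. All 6 DMSO libraries were from passage 4 cells, kept in high-glucose DMEM lacking pyruvate with 10% fetal calf serum and antibiotics at ambient oxygen, 37 °C and 10% CO2. Cells were plated to be about 80% confluent when the agent was added 24 hours later, and RNA was taken 48 hours after that, isolated with RNAzol and ribodepleted. The agent label reads DMSO for replicates 1 to 3 and repeats the replicate name for replicates 4 to 6, the DMSO dose is not in the labels, and the series text speaks of 5 DMSO replicates where the labels name 6. All 6 were used. No label says that they were separate cultures, and they came from 1 line, so their spread is that between libraries, which may be technical, and carries nothing on variation between mice.

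Fibroblasts are the mesenchymal cells that build and remodel connective tissue. They secrete collagens, proteoglycans and glycoproteins, cut them with matrix metalloproteinases held in check by tissue inhibitors, and release chemokines that draw leukocytes to a wound. In skin and tail they also keep a positional record in their Hox genes, the transcription factors laid down along the body axis of the embryo.

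The 2 most abundant transcripts, of Saa3 and Mmp3, encoded secreted proteins of inflammation and matrix turnover. Start regions of the 2 most abundant genes and of 3 chemokines are printed here, the chemokines chosen to show matches to textbook control elements after the windows had been searched. The window of Cxcl12, which was more abundant than Ccl8 or Ccl20, held no match. Each is the 250 bases before the annotated start in RefSeq (GRCm38.p6), 5′ to 3′ on the gene's strand. Saa3, a serum amyloid A of the acute phase, is at chr7:46715677-46715926, minus strand. Mmp3, or stromelysin 1, a broad matrix protease, is at chr9:7445572-7445821, plus strand. Of the chemokines, Cxcl1, which attracts neutrophils, is at chr5:90890995-90891244, plus strand. Ccl8, which attracts monocytes, is at chr11:82114935-82115184, plus strand. Ccl20, the ligand of Ccr6 on lymphocytes and dendritic cells, is at chr1:83116516-83116765, plus strand. Capitals mark matches to a TATA box (TATAAA), to an AP-1 site (TGANTCA) or to the NF-kB consensus.
Saa3: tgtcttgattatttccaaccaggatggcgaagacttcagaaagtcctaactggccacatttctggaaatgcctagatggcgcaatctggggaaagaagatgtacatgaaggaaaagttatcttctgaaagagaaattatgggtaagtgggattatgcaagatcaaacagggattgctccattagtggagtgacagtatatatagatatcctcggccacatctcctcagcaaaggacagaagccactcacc
Mmp3: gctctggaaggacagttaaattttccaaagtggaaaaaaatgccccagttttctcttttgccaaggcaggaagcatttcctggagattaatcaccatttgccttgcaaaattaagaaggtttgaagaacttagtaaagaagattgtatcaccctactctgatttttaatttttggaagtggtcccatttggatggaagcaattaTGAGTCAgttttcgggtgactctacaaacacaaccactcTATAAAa
Cxcl1: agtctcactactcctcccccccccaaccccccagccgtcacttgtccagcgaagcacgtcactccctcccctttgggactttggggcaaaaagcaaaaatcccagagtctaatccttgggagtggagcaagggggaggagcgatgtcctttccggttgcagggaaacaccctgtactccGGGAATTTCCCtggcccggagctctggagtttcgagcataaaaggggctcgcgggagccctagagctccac
Ccl8: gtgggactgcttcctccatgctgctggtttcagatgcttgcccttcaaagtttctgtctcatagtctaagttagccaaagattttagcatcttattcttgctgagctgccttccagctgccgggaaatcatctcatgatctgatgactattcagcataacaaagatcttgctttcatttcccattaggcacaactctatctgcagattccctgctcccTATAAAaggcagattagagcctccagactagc
Ccl20: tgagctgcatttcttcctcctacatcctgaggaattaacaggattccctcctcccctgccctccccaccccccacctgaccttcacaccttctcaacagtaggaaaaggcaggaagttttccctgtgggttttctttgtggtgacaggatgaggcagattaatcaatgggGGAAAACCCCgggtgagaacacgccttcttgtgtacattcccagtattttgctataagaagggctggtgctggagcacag

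Searched on both strands, the Mmp3 window held an AP-1 match 46 bases and a TATA box 7 bases before the start. The Cxcl1 window held 2 overlapping NF-kB matches, at 71 and 70 bases, and the Ccl20 window held 1 at 80 bases. The Ccl8 window held a TATA box at 32 bases, and the Saa3 window held none of the 3 motifs in these letters. Among passing chemokines, 12 of 20 had a window, and 6 of the 12 windows (50%) held an NF-kB match, against 3.90% of all 32851 windows of the same length. The most abundant chemokines, Cxcl5, Ccl2, Ccl5 and Ccl7, had no window and were not searched. Besides Cxcl1 at 1423 TPM, the matches were in genes with means of 13.8 (Cxcl3) to 79.9 TPM (Ccl20). AP-1 matches stood in 4 of 15 windows of the proteases and inhibitors (26.7%), against 6.75% of all windows. They were not particular to that list, with 5 of 13 windows of interferon-induced genes (38.5%). Chemokine windows held them in 16.7% of cases and acute phase and complement windows in 13.3%. In windows of noncollagen matrix, collagen chains and ribosomal proteins it was 6.25%, 3.45% and 2.94%. A TATA box stood in 5 of the 12 chemokine windows, against 12.4% of all. None of the 15 windows of acute phase and complement genes held an NF-kB match. A match describes letters in a window and is not evidence of binding in these cells.

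A small number of genes took much of the transcript pool. The 6 most abundant genes held 10% of the listed TPM, 41 genes held 25%, 281 held 50% and 4488 held 90%. The 20 most abundant genes together held 18.6% ± 0.320 (SD, n = 6) and the 100 most abundant 35.1% ± 0.370. Of the 25 most abundant genes, 10 belonged to the secretory lists, 5 to the mitochondrial genome and 3 were pseudogenes. Of the 10 most abundant genes 9 were among the top 10 of every library, and the same count was 15 for the top 20, 19 for the top 25 and 90 for the top 100. Above 1000 TPM stood 129 genes, and above 100 TPM 1366.

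Saa3 led in every library. This acute phase apolipoprotein, made outside the liver in inflammation, lies at chr7:46711998-46715700 in GRCm38 and was at 29576 TPM in the lowest library, 32566 at the median and 34957 in the highest, with a mean of 32372 ± 2519. Mmp3 (chr9:7445822-7455975) came next at 20921, 22160 and 22769 TPM for lowest, median and highest, with a mean of 22047 ± 660. Fth1, the heavy chain of the iron store ferritin (chr19:9980598-9985098), was at 15985, 17195 and 17495 TPM, with a mean of 16961 ± 555. The ranges of these 3 genes did not overlap, so the order Saa3, Mmp3, Fth1 held in all 6 libraries.

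Below them the neighbours in rank often overlapped. Spp1, which encodes osteopontin, a matrix protein and cytokine, was at 10993 TPM in the lowest library and 12203 in the highest, with a mean of 11481 ± 517, while mt-Co1, a subunit of cytochrome oxidase, reached from 9344 to 11020. Thbs4, thrombospondin 4 of tendon and other connective tissues, had a mean of 8642 ± 441, the neutrophil chemokine Cxcl5 7852 ± 663 and mt-Co3 7737 ± 404 TPM, and their ranges overlapped. Serpinf1, the antiangiogenic factor PEDF, followed at 5820 ± 257 TPM, close to the elongation factor Eef1a1 at 6153 ± 171. Ftl1, the ferritin light chain, was at 5501 ± 554 TPM. The ratio of Fth1 to Ftl1 was 2.70 to 3.31 across libraries, with a mean of 3.10 ± 0.234. Of the short sequence stretches of Ftl1 54.5% also occur in other genes, against 3.19% of those of Fth1. The level of Ftl1 and the ratio are therefore uncertain.

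**Figure D1:**
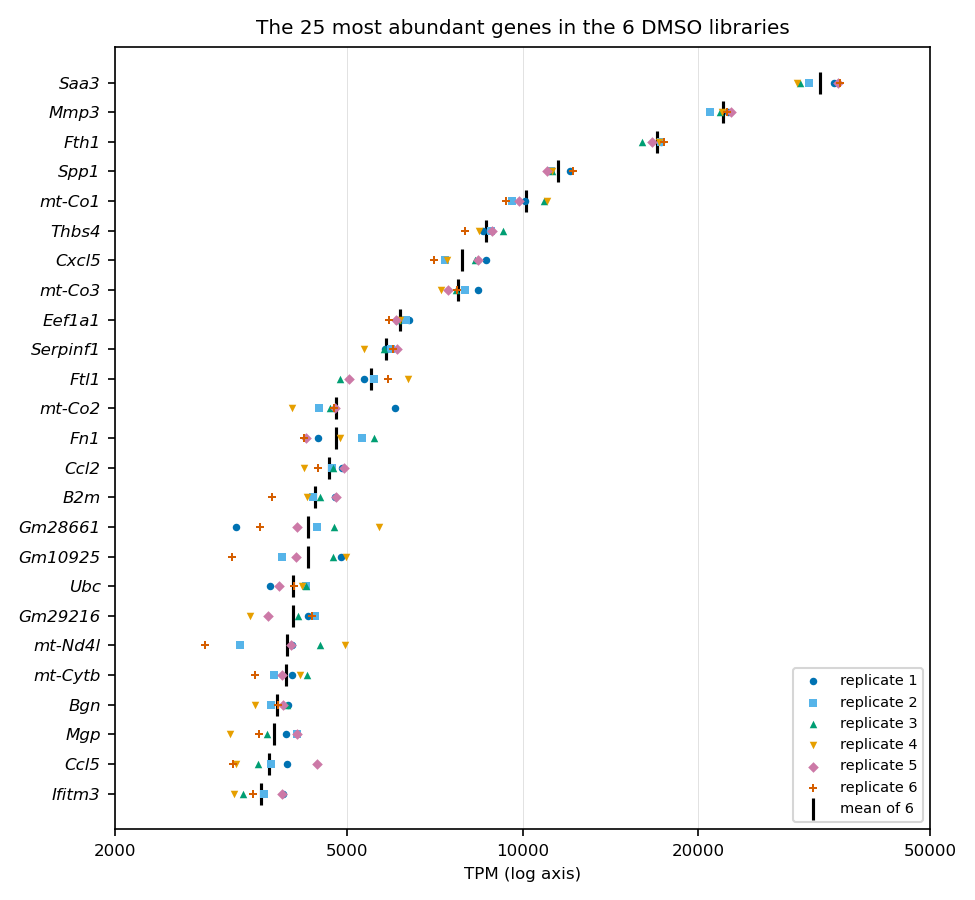
TPM of the 25 most abundant genes (log axis), with 1 point for each of the 6 DMSO libraries and a black bar at the mean. Saa3, Mmp3 and Fth1 stand apart from each other and from the rest, while from Spp1 down 19 of 21 pairs of neighbours in rank overlap, all but mt-Co1 with Thbs4 and mt-Co3 with Eef1a1.

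Among the top 20, 3 predicted genes, Gm28661, Gm10925 and Gm29216, are unprocessed pseudogenes on chromosome 1 that copy mitochondrial sequence, and from 97.2% to 100% of their 31-mers (stretches of 31 bases) also occur in genes of the mitochondrial genome. Gm28661 was at 3223 TPM in the lowest library and 5661 in the highest. With Gm28437, which was singled out after its values were seen, they held 1.48% ± 0.167 of the listed TPM, and with the 13 mitochondrial protein genes 6.55% ± 0.444. Nearly all 31-mers of mt-Co2 (99.5%), mt-Co3 (99.9%) and mt-Atp6 (99.5%) occur in these copies, so the split of reads between them is uncertain. Of those of mt-Co1 29.6% do, and of those of mt-Nd1, mt-Nd2 and mt-Nd4l none. Counted over all other genes, the shared part was 63.9% for mt-Co1, 13.5% for mt-Nd2 and 98.9% for mt-Nd4l, and none for mt-Nd1. The sums above leave out Gm28438, an unprocessed pseudogene beside Gm28437 on chromosome 1, at 1415 ± 140 TPM or 0.151% of the listed TPM. Of its 31-mers 99.0% occur in other genes. Pseudogenes in all held 4.83% ± 0.109, with 497 of 7518 passing.

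By class, the secretory lists held 17.6% ± 0.500 of the listed TPM in 242 genes, and the lists of housekeeping genes 23.9% ± 0.450 in 272. Cytosolic ribosomal proteins were the largest single list at 8.39% ± 0.315, with 79 of 79 members passing and the highest of them, Rplp1, at 4.29% of the list. Mitochondrially encoded proteins held 5.08% ± 0.311 in 13 genes. Acute phase and complement genes held 4.45% ± 0.307, noncollagen matrix 4.40% ± 0.119, and matrix proteases with their inhibitors 4.02% ± 0.0850. Iron and redox genes held 3.54% ± 0.186, chemokines 2.32% ± 0.160 and collagen chains 0.922% ± 0.0570. The lead genes took unequal parts of these shares. Saa3 made up 77.7% of its list and Mmp3 58.6%, while Cxcl5 made up 36.2% of the chemokines and Spp1 27.9% of the noncollagen matrix.

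**Figure D2:**
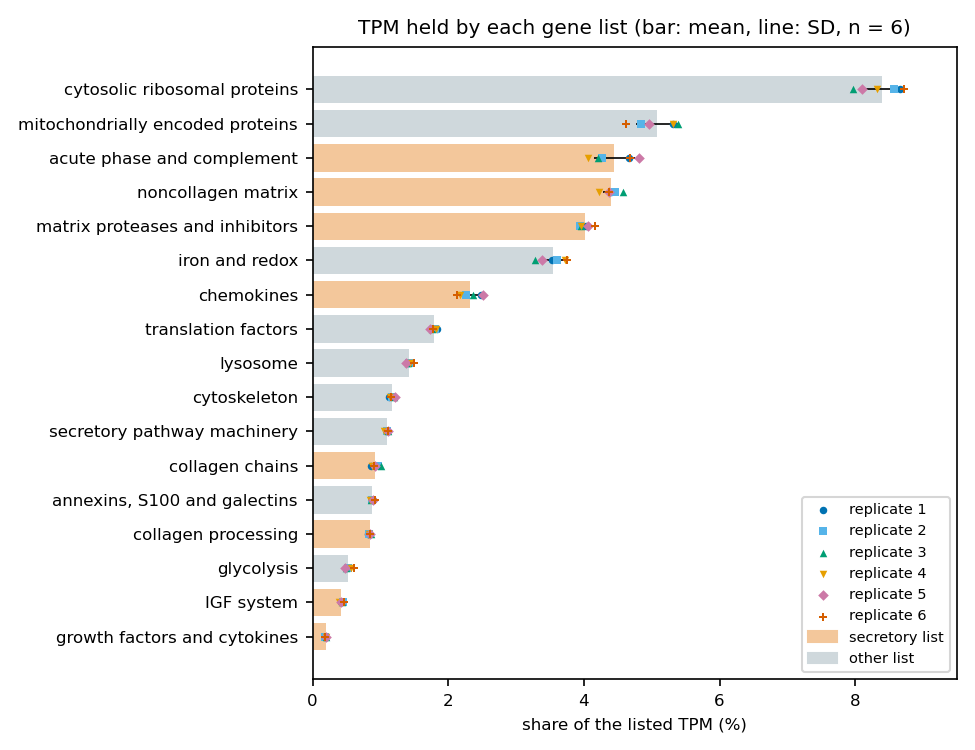
Share of the listed TPM (%) held by each secretory list (orange) and each other list (grey), with bars for the mean, lines for the SD and points for the 6 DMSO libraries. Ribosomal proteins lead at 8.39%, and the acute phase, noncollagen matrix and protease lists follow the mitochondrial genes with 4.02% to 4.45% each.

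Among the chemokines, 20 of 21 passed and 5 stood above 1000 TPM. Cxcl5, which attracts neutrophils through Cxcr2, was at 7038 TPM in the lowest library, 7848 at the median and 8632 in the highest. The monocyte attractants followed. Ccl2 was at 4221, 4717 and 4938 TPM for lowest, median and highest, and Ccl7 at 1898, 2109 and 2227. Ccl5, which attracts T cells and monocytes, was more spread, at 3180, 3610 and 4436 TPM. Cxcl1 was at 1423 ± 51.3 TPM, and Cxcl12, the homing signal for Cxcr4-bearing cells, at 914 ± 69.8. Lower levels were found for Ccl8 (494 ± 70.4), the membrane-tethered Cx3cl1 (286 ± 40.2) and Ccl20 (79.9 ± 13.9). The interferon-responsive Cxcl10 was at only 14.1 ± 4.18 TPM and Cxcl9 at 8.32 ± 2.42, and Cxcl13, the B cell attractant, did not pass, with 0.0624 TPM in its highest library. The order of the top 5 chemokines overlapped only between Ccl2 and Ccl5.

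Acute phase and complement genes passed in 21 of 23 cases. The serum amyloids were very unequal, with Saa3 at 1632 ± 379 times the sum of Saa1 (17.3 ± 4.63 TPM) and Saa2 (3.51 ± 2.74 TPM), and only 1.16% of the 31-mers of Saa3 occur in those genes. Lcn2, the iron-scavenging lipocalin, was the next member at 2416 ± 250 TPM. Complement was represented from its start, by the protease genes C1s1 (1096 ± 136) and C1ra (611 ± 55.5), to its centre, by C3 (1086 ± 113) and C2 (140 ± 14.4). The alternative pathway enzyme Cfb was at 647 ± 89.1 TPM. The share of 31-mers found in other genes was 75.5% for Cfb, 57.2% for C1ra, 44.4% for C2 and 33.5% for C1s1. The values of those genes are therefore uncertain. The inhibitor of C1, Serping1, was at 630 ± 51.6 TPM. The pentraxin Ptx3 was at 733 ± 85.9 TPM and the protease inhibitors Serpina3n and Slpi at 971 ± 53.8 and 488 ± 43.8. Saa4 and Orm3 did not pass.

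Matrix proteases and their inhibitors passed in 21 of 26 cases. The list also counts Serpinf1 (5820 ± 257 TPM), its most abundant member after Mmp3. Among the proteases, behind Mmp3 came the collagenase Mmp13 at 1143 TPM in the lowest library, 1251 at the median and 1432 in the highest. The gelatinase Mmp2 was at 896, 1004 and 1096, and the ranges of Mmp13 and Mmp2 did not overlap. Mmp14, the membrane protease that activates Mmp2, was at 588 ± 39.9 TPM, and the second gelatinase, Mmp9, at 243 ± 22.5. Mmp11 varied most among the abundant proteases, from 213 to 477 TPM. The inhibitors Timp1 (2957 ± 210), Timp2 (1503 ± 43.4) and Timp3 (158 ± 14.3) all passed and Timp4 did not. Mmp3 stood at 7.49 ± 0.601 times Timp1, between 6.66 and 8.19 in single libraries. Serpine2, an inhibitor of thrombin and plasminogen activators, was at 984 ± 28.9 TPM, over the activators Plat (136 ± 9.34) and Plau (25.4 ± 3.05).

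Fibrillar collagens were led by Col3a1 at 2486 TPM in the lowest library, 2737 at the median and 3027 in the highest. Type I collagen followed, with Col1a2 at 1473, 1660 and 1925 TPM and Col1a1 (chr11:94936224-94953042) at 821, 935 and 1275. Each type I molecule holds more of the chain from Col1a1 than of that from Col1a2, but in TPM Col1a2 was at 1.69 ± 0.155 times Col1a1, above 1 in all 6 libraries. Saa3 was at 33.4 ± 7.28 times Col1a1. Col6a1 (chr10:76708792-76726168), a chain of the beaded filaments around cells, was at 653, 691 and 767 TPM and stood at 1.69 ± 0.0388 times Col6a2, while its ratio to Col6a3, the third chain, was more spread at 4.19 ± 0.426, from 3.60 to 4.75. The basement membrane pair Col4a1 and Col4a2 ran at 1.13 ± 0.0387. In all, 33 of 44 collagen chains passed, 14 of them above 100 TPM.

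Every one of the 26 genes for collagen folding, trimming and crosslinking passed. They include Lox, the crosslinking oxidase (1628 ± 137 TPM), Pcolce, which speeds procollagen cleavage (1036 ± 87.7), the procollagen chaperone Serpinh1 (473 ± 14.4), the prolyl hydroxylase subunit P4ha1 (138 ± 9.43), the lysyl hydroxylase Plod1 (124 ± 15.98) and the procollagen protease Bmp1 (152 ± 9.10). As a list they held 0.842% ± 0.0158 of the listed TPM, close to the 0.922% of the chains themselves. Ctsk, a lysosomal collagenase, was at 488 ± 76.7 TPM.

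Of the noncollagen matrix genes, 56 of 57 passed and 9 stood above 1000 TPM. After Spp1 came Fn1, fibronectin, at 4220 TPM in the lowest library, 4660 at the median and 5560 in the highest. The small proteoglycan Bgn was at 3473, 3837 and 3954 TPM, and Mgp, an inhibitor of calcification, at 3146, 3786 and 4103. The range of Fn1 lay above both, and those of Bgn and Mgp overlapped. Sparc (2171 ± 129), the elastic fibre protein Efemp2 (1508 ± 91.7), the proteoglycan Dcn (1472 ± 54.4) and Postn (1377 ± 191) came next. With Thbs4 included, the noncollagen matrix held 5.32% ± 0.154 of the listed TPM.

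The lists of the IGF system and of growth factors and cytokines held smaller shares than the matrix and chemokine lists. Single members overlapped. The median member was at 13.9 TPM among growth factors and cytokines and at 5.09 TPM among collagen chains. Of the IGF system 8 of 9 genes passed, and binding proteins outnumbered ligands, with Igfbp4 at 2058 ± 136 TPM, Igfbp2 at 673 ± 50.1 and Igfbp7 at 483 ± 46.2 against Igf1 at 22.5 ± 4.71 and Igf2 at 5.69 ± 1.15. Growth factors and cytokines passed in 29 of 36 cases and held 0.194% ± 0.0104. Csf1, the macrophage growth factor, led at 553 ± 57.6 TPM, ahead of the keratinocyte growth factor Fgf7 (224 ± 16.1) and the lymphangiogenic Vegfd (193 ± 15.6). Il6 was at 14.6 ± 3.25 and Tgfb1 at 57.5 ± 3.83 TPM. All 47 genes of the secretory pathway machinery passed, led by the endoplasmic reticulum chaperones Calr (1086 ± 33.3), Pdia3 (850 ± 26.3) and Hspa5 (682 ± 23.5).

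The fibroblast label was checked against markers. All 12 fibroblast markers passed, from Fap at 8.06 ± 1.67 TPM to Col3a1 at 2726 ± 198, with a median of 185 TPM. Of the wider list of 27 fibroblast surface and identity genes 23 passed, and the other 4, among them the dermal fibroblast gene Dpp4 (0.316 ± 0.224), stayed below 1 TPM in all 6 libraries. Pdgfra, the mesenchymal growth factor receptor, was at 199 to 228 TPM, Thy1 at 209 to 256 and the transcription factor Prrx1 at 152 to 215. Of 28 defining markers of 14 other cell types, 6 passed, and of all 84 markers of those types, 25. Both tendon markers were among them, Tnmd at 71.7 ± 4.25 TPM and Scx at 9.15 ± 1.11, and with Thbs4 and Mkx (55.5 ± 4.48) 4 of 4 tendon genes passed. Without tendon, 4 of 26 passed and the highest was the macrophage gene Adgre1 at 10.4 ± 1.05.

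Keratinocyte Krt5, muscle Myod1, adipocyte Plin1, lymphocyte Cd3e, neuronal Rbfox3 and erythroid Hbb-bs and Hbb-bt were listed at 0 in all 6 libraries. No marker at all passed for lymphocytes, skeletal muscle, neurons or erythroid cells. Passing markers with means below 10 TPM were found for keratinocytes (1 of 8), endothelial cells (1 of 7) and melanocytes (2 of 5). The same held for pericytes and smooth muscle (2 of 6), chondrocytes (2 of 7), Schwann cells (2 of 5) and osteoblasts (3 of 5). Among them were Alpl at 9.29 ± 1.36, Tek at 6.56 ± 1.26, Sox9 at 4.48 ± 0.809 and Mlana at 4.41 ± 0.970 TPM. In the macrophage and myeloid list 5 of 9 genes passed, summing to 155 to 213 TPM, of which Lyz2 alone gave 83.8%, with Lyz2 at 157 ± 17.8, Fcer1g at 12.7 ± 2.74 and the defining marker Ptprc at 0.722 ± 0.126. In the adipocyte list Lpl was at 143 ± 12.2 and Fabp4 at 20.5 ± 4.27 while Adipoq did not pass, with a median of 0. In bulk RNA, few cells of another type and low expression in every cell cannot be told apart.

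**Figure D3:**
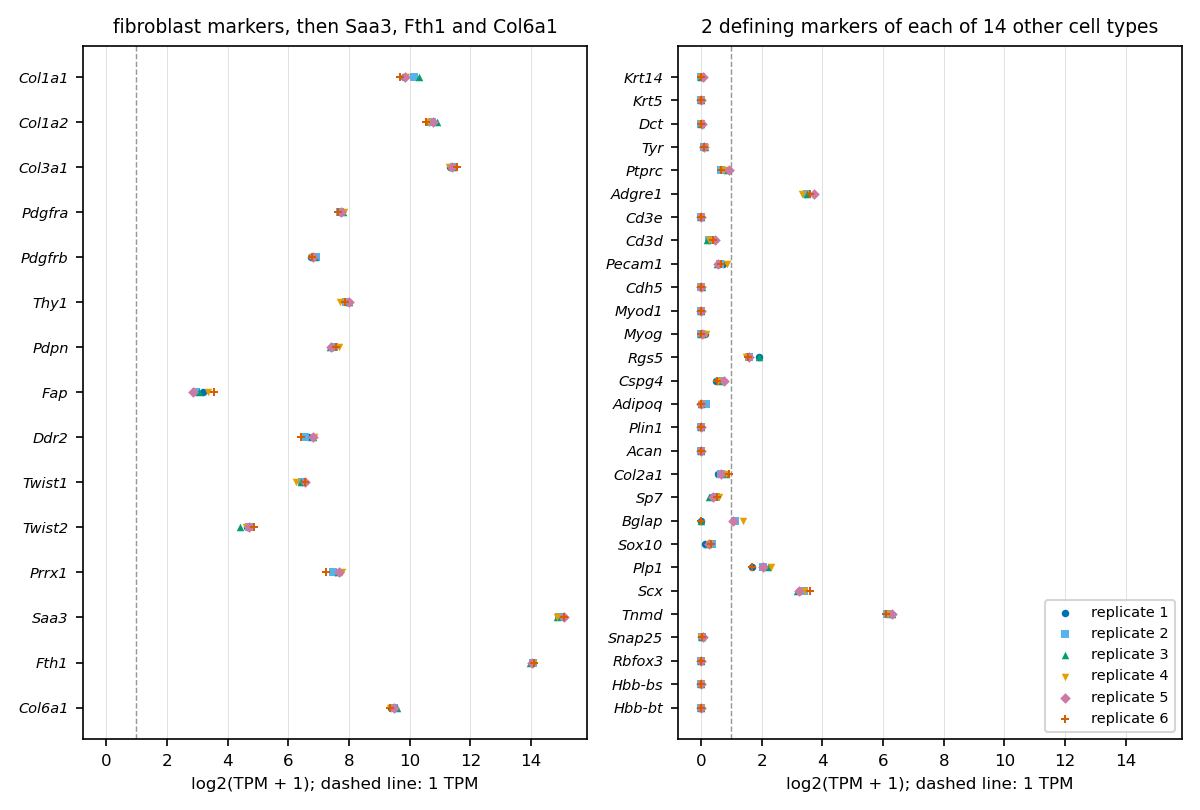
Levels as log2(TPM + 1) of the fibroblast markers with Saa3, Fth1 and Col6a1 (left) and of the defining markers of 14 other cell types (right), with 1 point per DMSO library and a dashed line at 1 TPM. Every marker on the left lies to the right of the line, while on the right Tnmd at 71.7 TPM, Adgre1 and Scx are the highest of 6 that passed.

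The Hox genes passed in 26 of 39 cases, and the clusters differed. Cluster A had 8 of 11 passing, cluster B 9 of 10 and cluster C 9 of 9, while in cluster D 0 of 9 passed and the highest single value was 0.577 TPM. Hoxb13, the most posterior gene of its cluster, was the highest of all, at 56.3 TPM in the lowest library, 66.7 at the median and 73.2 in the highest. Hoxb9 (54.0 ± 2.56), Hoxc12 (36.3 ± 4.69) and Hoxa10 (25.7 ± 2.28) followed. In clusters A to C, all 11 genes of paralogue groups 9 to 13 passed and summed to 279 TPM, and 15 of 19 genes of groups 1 to 8 passed and summed to 114 TPM. Of 46 mesenchymal transcription factors 37 passed, among them the limb and trunk mesenchyme factors Prrx2 (189 ± 19.5), Snai2 (169 ± 11.8) and Twist1 (86.4 ± 6.01), while the limb factors Tbx5 (0.119 ± 0.0478) and Pitx1 (0.0717 ± 0.0927) did not. Genes of the Y chromosome passed, with Eif2s3y at 16.02 ± 0.895 and Ddx3y at 9.55 ± 1.06 TPM.

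Transcripts of cell division were at low levels beside those of cell cycle inhibitors. The cell cycle list held 0.0186% ± 0.000757 of the listed TPM, and its inhibitors 0.142% ± 0.00382. Cdkn2a, the locus of p16 and Arf, was at 523 TPM in the lowest library, 576 at the median and 601 in the highest. Cdkn1a, which encodes p21, was at 397, 445 and 465, and Cdkn2b, or p15, at 129, 143 and 151. The proliferation marker Mki67 did not pass, at 0.229 ± 0.0528 TPM, and the mitotic genes Plk1 and Bub1 did not either. Top2a was at 2.85 ± 0.388, Ccnb1 at 1.56 ± 0.337, Cdk1 at 31.6 ± 0.798 and the replication clamp Pcna at 49.0 ± 2.75. All 8 inhibitors passed, and 18 of 23 cell cycle genes did, 5 of them with a mean of 10 TPM or more.

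Contractile genes, which mark the myofibroblast state, held 0.176% ± 0.0134. Tpm1 led at 648 ± 35.3 TPM, smooth muscle actin Acta2 was at 194 TPM in the lowest library, 248 at the median and 323 in the highest, and Tagln at 135 ± 17.5, while Des and Myh11, genes of mature muscle, did not pass. All 27 iron and redox genes passed. Beside ferritin they included Prdx1 (2170 ± 299), the metallothioneins Mt2 (2092 ± 133) and Mt1 (1121 ± 195), Hmox1, which breaks down heme (523 ± 81.9), and the NRF2 target Nqo1 (90.9 ± 9.63). The iron exporter Slc40a1 was at 14.7 ± 6.42 TPM, from 9.25 to 25.02.

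The 6 libraries resembled each other closely. Pairwise Pearson correlations of log2(TPM + 1) over the 12690 genes, given across genes as a description, were 0.986 to 0.992 over 15 pairs, and each DMSO library had another DMSO library as its nearest of all 30. The group was not set apart as a whole. Of the 6, 5 correlated more highly with a Dihydrorotenone library than with the least similar DMSO library, for replicate 4 at 0.988 against 0.986. The Dihydrorotenone group includes the 1 library labelled with an older age range, and the part of that difference was not tested. No pair was alike enough to be 1 library deposited under 2 names, with at most 9 genes identical in any pair. The listed TPM summed to 93.5% to 93.7% of 1000000 and 12569 to 12700 genes reached 1 TPM in a library.

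The coefficient of variation (CV, the SD over the mean of TPM) had a median of 8.91% over passing genes, with quartiles of 5.99% and 13.8%, and the median SD on the log2(TPM + 1) scale was 0.12. A CV of 30% or more was found for 760 genes (5.99%). The spread followed the level, with a median CV of 24.1% in genes up to 2 TPM, 11.2% from 5 to 10 TPM, 7.96% from 10 to 50 TPM and 5.97% from 100 to 1000 TPM. It also followed shared sequence. Genes with over 50% of their 31-mers in other genes had a median CV of 17.3%, against 8.57% in genes that share none, but their median level was also lower, at 10.02 against 20.03 TPM. Among genes with a mean of at least 10 TPM the median CV was 10.05% with over 50% shared and 7.24% in the others, and 39 of 374 with over 50% shared had a CV of 30% or more, against 29 of 7989 others (0.363%). Just inside the filter lay 220 genes with exactly 3 libraries at 1 TPM, with a median level of 1.04 TPM, and just outside 281 genes with 2, at 0.861 TPM.

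**Figure D4:**
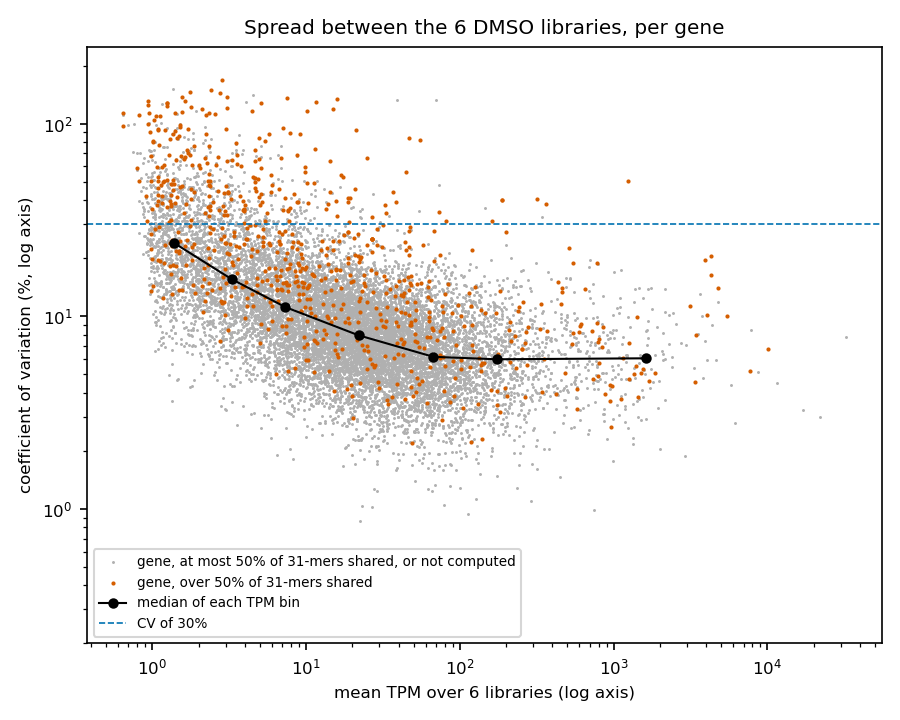
CV over the 6 DMSO libraries (%, log axis) against mean TPM (log axis) for each passing gene, in orange where over 50% of its 31-mers occur in other genes. The black line of bin medians goes from 24.1% at the left to 5.97% between 100 and 1000 TPM, and many of the points above the 30% line are orange.

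Among genes of at least 10 TPM the widest spread included 2 immediate early genes. Egr1, a growth factor-induced transcription factor, was at 40.7 TPM in the lowest library, 61.7 at the median and 117 in the highest, and Fos at 6.32, 11.9 and 16.9. Both were above their 6-library mean in replicates 3 and 4. Slc40a1, the fibroblast gene Pi16 (18.0 to 49.5 TPM), Mrm1 (6.53 to 17.9) and the Notch target Hes1 (8.95 to 22.8) were highest in replicate 6. Fxr1 (7.55 to 22.9) was highest in replicate 3, Oxnad1 (12.4 to 32.6) in replicate 4, and Morc3 (6.19 to 20.4) and Tfdp1 (3.76 to 15.4) in replicate 2. The replication histones Hist2h2aa2 (15.7 to 52.8) and Hist1h2bl (9.87 to 25.8) have 100% and 88.6% of their 31-mers in common with other genes, and their values are uncertain. At the other end, the receptor kinase gene Grk6 was at 22.5 ± 0.195 TPM, Polr2m at 114 ± 1.07, the lysosomal membrane gene Lamp1 at 745 ± 7.38, Dnaja3 at 26.8 ± 0.276 and the GTPase gene Rhoa at 289 ± 3.15. Parn, Ptpra and Sfr1 had CVs of 1.03%, 1.05% and 1.12%. Single libraries set several of the wide spreads, since the CV of Oxnad1 was 47.1% with and 9.66% without replicate 4, that of Fxr1 50.6% and 27.8% without replicate 3, and those of Pi16 (42.9%) and Hes1 (39.2%) 21.7% and 25.03% without replicate 6. That of Tfdp1 was 42.9% with and 28.4% without replicate 1. The narrow spreads depended on the scale, since the 8 genes had CVs of 1.98% to 3.14% after median-ratio scaling and of 0.666% (Ptpra) to 3.05% after quantile normalization.

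Members of some lists lay on the same side of their means in a library. Replicate 6 stood farthest from the others, with 630 of 7422 genes more than 0.3 away on the log2 scale from the mean of the other 5, of which 478 were below it, against 377 genes in replicate 4 and 136 to 232 in replicates 1, 2, 3 and 5. The 7422 genes had a mean of at least 10 TPM and under 20% of their 31-mers in other genes. In replicate 6, 0 of 16 interferon-induced genes were above their mean and the list's median deviation was -0.42 on the log2(TPM + 1) scale. Ifit3, an antiviral effector, was at 71.9 TPM in its lowest library against a median of 132, and Cxcl10 at 6.28 against 15.7. Of the 31-mers of Ifit3 61.8% occur in other genes, so its values are uncertain. Chemokines were above their mean in 2 of 20 cases in replicate 6 and in 20 of 20 in replicate 1. Glycolysis genes were above in 14 of 17 cases in replicate 6, with a median deviation of 0.19, and Pkm reached 1487 TPM there. They were above in 14 of 17 cases in replicate 4 too, with a median deviation of 0.10.

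Contractile genes were above their mean in 11 of 11 cases in replicate 5 (median deviation 0.29) and in 0 of 11 in replicate 1. Immediate early genes were above in 1 of 13 cases in replicate 1 and in 10 of 13 in replicates 3 and 6. Ribosomal protein genes were above in 72 of 79 cases in replicate 1, in 9 of 79 in replicate 3 and in 7 of 79 in replicate 5, while collagen chains were above in 29 of 33 in replicate 3. Macrophage and myeloid markers were above in 5 of 5 passing cases in replicates 5 and 6, and their part in these shifts was not tested. The number of all passing genes above their mean ranged from 4856 of 12690 in replicate 1 to 7926 in replicate 3. It was 7072 in replicate 5 and 5021 in replicate 6. The count for a list is to be read beside that of all genes in the same library. All these are counts over 6 libraries of 1 group, with no test. After median-ratio scaling or quantile normalization, 1 of the 16 interferon-induced genes was above its mean in replicate 6 (median deviation -0.39 under both), and ribosomal protein genes in replicate 5 were above in 4 of 79 and 20 of 79 cases.

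**Figure D5:**
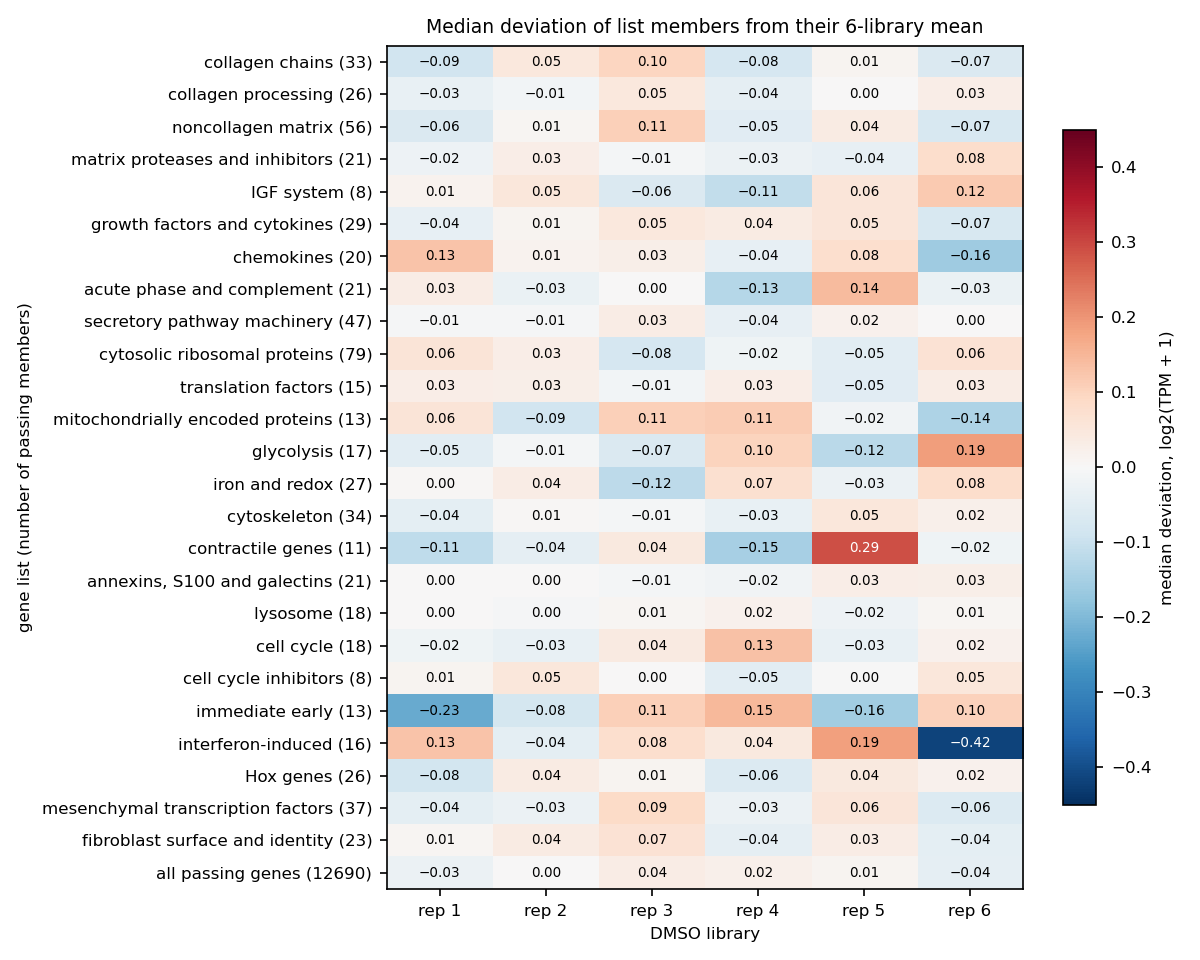
Median deviation of the passing members of each list from their 6-library mean, log2(TPM + 1), for each DMSO library (columns), with the number of passing members beside each list. The darkest cells are interferon-induced genes in replicate 6 (-0.42) and contractile genes in replicate 5 (0.29), and most other cells lie near 0.

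The spread among DMSO libraries was set beside that within each compound group. The root mean variance of log2(TPM + 1) over the same genes was 0.203 in DMSO (6 libraries) and 0.170 to 0.196 in the 8 compound groups of 3 libraries each, none of which was above DMSO. The genes were selected on the DMSO libraries, and no test was made of 1 value per group. In the Dihydrorotenone group 1 library is labelled with an older age range than the others.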

How the data were processed

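RNA was measured by sequencing in 6 DMSO libraries of the mouse tail fibroblast line. The deposited table holds TPM for 29861 genes, made by the authors with kallisto 0.43.1, with FastQC and mm10 also named, per the submitters' processing notes, and summed per gene with tximport, per the series text. The transcript index is not given in the sources used here. TPM keeps no read counts, so depth is unknown and precision was judged from the spread between libraries.

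Samples were grouped by title. Symbols, positions and gene types came from GENCODE M21 of GRCm38, the build mm10 names, for 29505 genes, and promoter windows from RefSeq. Values are TPM as deposited or log2(TPM + 1), with mean ± SD, lowest, median and highest over 6 libraries, computed in Python 3.11.15 with pandas 2.3.3 and numpy 2.4.6. Genes needed 1 TPM in at least 3 libraries. No contrast between groups was made or tested, and single libraries far from the other 5 were sought with Dixon's ratio. Spread statistics were checked on simulated data. For shared sequence, the percentage of a gene's 31-mers found in other genes was computed.

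The libraries and the 41 gene lists were chosen with earlier results of these data known. Open to naming were the 25 most abundant genes, list members, the 12 largest and 8 smallest CVs at 10 TPM or more among genes with a proper symbol (no Gm, Rik, pseudogene or clone name), and the 5 most abundant pseudogenes. Genes outside this are said to be so. Some list members are counted with their lists but are not reported here singly. Alternatives covered the low-value filter, the pseudocount, the scaling, the genes in the total and each library left out.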

Additional observations from a re-analysis of the deposited data

Results flagged for a closer look

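Of 243 values checked over the 6 DMSO libraries, 14 (5.76%) had 1 library set apart from the other 5 by a gap that is large for the range of the group (Dixon's ratio at its 95% critical value). Chance flags about 1 in 20 groups. The values checked include genes chosen for their wide or narrow spread, and 6 of the 14 are the predicted genes described next with their sum. The share is near the background, since over all 12690 passing genes 677 (5.33%) had such a library, 206 of them in replicate 6 and 162 in replicate 4.

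A gap of several fold was found in 5 predicted genes with shared sequence, Gm10800, Gm10801, Gm10717, Gm10718 and Gm10719, which were singled out after their values were seen. Their sum was 557 TPM in replicate 6 and at most 94.0 in the other 5 libraries, so replicate 6 was at 5.92 times the next. Replicate 6 was the highest for each, with Gm10800 at 258 TPM (next 45.6), Gm10801 at 145 (next 22.9), Gm10717 at 51.6 (next 8.82), Gm10718 at 59.2 (next 10.6) and Gm10719 at 42.2 (next 7.90). Of the 31-mers of Gm10718, 71.7% occur in the other 4, so these are not 5 independent values.

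In replicate 1, mt-Co2 was at 6030 TPM against 4763 in the next library, Polr2m at 116 against 114, and the 100 most abundant genes held 35.8% against 35.1%. Replicate 6 had Pkm at 1487 TPM against 1252. Oxnad1 was at 32.6 TPM in replicate 4 against 15.8. Low values were Alpl at 6.57 TPM in replicate 5, with 9.39 in the next library, and Cdk1 at 30.1 TPM in replicate 3, with 31.7 in the next. Adipoq was at 0.113 TPM in replicate 2 and listed at 0 in the other 5. None of these gaps was tested for a cause.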

How the results depend on the processing

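Shares depend on which genes are in the total. With protein-coding genes only, the 20 most abundant genes held 19.4% and the 100 most abundant 35.8%, ribosomal proteins 8.84%, noncollagen matrix 4.64%, proteases and inhibitors 4.23%, iron and redox genes 3.73% and the IGF system 0.450%. Without the mitochondrially encoded genes these were 18.2% and 33.2% for the top genes, 8.84% for ribosomal proteins, 4.63% for noncollagen matrix, 4.23% for proteases and 3.73% for iron and redox. Any value above 0 in any library was found for 20629 genes. The count of genes with a CV of 30% or more was 342 when all 6 libraries had to reach 1 TPM, 151 with a mean of at least 5 TPM and 2761 with no filter, which change the genes counted. With each library left out in turn, that count was 657 to 712 and the passing count 12565 to 12602. The top 20 share was 18.5% to 18.6%, and the shares of the 11 lists recomputed moved by less than the spread between libraries. The means of 221 named genes moved by less than that spread under median-ratio scaling and quantile normalization, and with each library left out. Leaving out 1 of 6 values cannot move a mean by as much as their SD. The left-out comparisons of these means and list shares were therefore settled in advance. The CVs of named genes moved by over 1.5 times for 15 genes under median-ratio scaling (206 did not) and for 18 under quantile normalization (198 did not). With libraries left out, each gene was compared once per library, and 72 such comparisons moved while 1253 did not. Rescaled in 2 ways after seeing the data, 15 list deviations that the report describes kept their sign in 30 of 30 cases. That of glycolysis genes in replicate 4, also described, kept its sign under both. Of all 156 deviations of 26 lists 15 changed sign under median-ratio scaling and 13 under quantile normalization, none of them over 0.044 in size as deposited. No paired analysis was possible because 1 group was described and no result came from a test between groups. Depth is unknown, so for genes near 1 TPM counting error cannot be separated from other spread, and all libraries come from 1 line.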

Other observations

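Several gene groups outside the secreted products were also abundant in the 6 DMSO libraries. All 18 lysosomal genes passed and held 1.43% ± 0.0391 of the listed TPM, led by the protease gene Ctsd (1989 ± 40.9 TPM), Psap, the precursor of the saposins (1935 ± 64.6), Cd63 (1649 ± 141) and Ctsl (1357 ± 161). The list's median CV was 4.06%, beside 5.97% over passing genes from 100 to 1000 TPM, and those of the cytoskeleton and glycolysis lists were 7.04% and 9.84%. Cytoskeletal genes passed in 34 of 34 cases and held 1.17% ± 0.0335, with the intermediate filament gene Vim at 2542 ± 231 TPM, Actb at 792 ± 75.2 and Actg1 at 755 ± 53.3.

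Calcium-binding and sugar-binding proteins were also abundant, with S100a4, a gene much used as a fibroblast marker, at 2405 ± 147 TPM, the galectin genes Lgals3 and Lgals1 at 1369 ± 65.7 and 1083 ± 66.5, and Anxa1 at 518 ± 36.0. S100a9 was listed at 0 in all 6 libraries while its partner S100a8 was at 3.47 ± 1.59 TPM. All 17 glycolysis genes passed, from Aldoc at 3.84 ± 0.855 to Pkm at 1248 ± 123 TPM, and the lactate dehydrogenase genes were unequal, with Ldha at 580 ± 57.1 and Ldhb at 50.3 ± 1.26. Cell adhesion genes of activated fibroblasts, Vcam1 (455 ± 44.5) and Icam1 (108 ± 10.9), passed, and so did the stem and progenitor marker Ly6a (553 ± 73.5).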
